A study of Mus musculus with 2 samples.

Results

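The Toll-like receptor genes and the genes of the first steps below them were described in LPS-stimulated macrophages with and without PAC1, the MAP kinase phosphatase encoded by Dusp2. The 10 genes were listed by their role at the receptor (Tlr2, Tlr4, Tlr6, Cd14, Ly96, Myd88, Irak1, Irak2, Ripk2 and Traf6), and all probe sets annotated to them were taken. Of these, 5 genes had a named probe set, namely Cd14, Tlr6, Myd88, Irak1 and Traf6, with 7 probe sets of the 12654 on the array. These are 5 of the 8220 genes named there. Tlr2, Tlr4, Ly96, Irak2 and Ripk2 had no probe set named for them alone in the annotation used and were not analysed here. The signalling receptor for LPS itself was thus not described, although probe sets with several symbols or none were not searched for it.

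One array held RNA of Pac1-/- mouse macrophages and the other RNA of Pac1+/+ littermates of the same age. In both groups the cells had been drawn to the peritoneum with thioglycollate, injected 4 days earlier, purified by adherence for 2 hours and given 100 ng/ml LPS for 6 hours, a time chosen by the submitters for inflammatory genes. The deletion was carried by the mice and was not limited by the labels to any cell type. The labels and the design text state neither the number of mice behind an array nor their age. Unstimulated cells were not analysed, so each value is a level after LPS and not an induction. Each genotype had 1 array, so the spread between mice is unknown and no p-value is given.

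LPS is carried to the co-receptor CD14, which hands it to MD-2 (Ly96) bound to Toll-like receptor 4. The intracellular domains of most Toll-like receptors recruit the adaptor MyD88, which assembles the IRAK kinases, and these engage the ubiquitin ligase TRAF6. TRAF6 activates the kinases that lead to NF-kB and to the MAP kinases, the substrates of PAC1. Toll-like receptor 6 pairs with Toll-like receptor 2 to detect bacterial lipopeptides. In macrophages this pathway is the main entry of bacterial signals into inflammatory gene expression.

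Dusp2 had a signal of 333 in wild-type and 76.8 in Pac1-/- cells, in the arbitrary units of the Affymetrix MAS5 signal, so the arrays differed in the targeted gene in the direction of their labels. The position of the probes relative to the deletion is not stated in the labels. The deposited signals had a 2% trimmed mean of 150.015 on each array, and medians of 38 on the knockout and 35 on the wild-type array. Whether the arrays were scaled to that mean before deposit is not stated, so the near-equal means are not read as a result. A floor was set at 36.4, the median signal over the arrays. Probe sets above it on at least 1 array, 6838 in all, are called eligible. A probe set was counted as different at 2-fold or more, which held for 157 of the eligible ones, 81 higher and 76 lower in the knockout, or 2.3%. With the arrays scaled to equal medians, the split was 55 higher and 116 lower, because under it the median over all eligible log2 ratios moved by −0.11.

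Of the 7 probe sets of the receptor and proximal genes, 5 were above the floor on both arrays, 1 of Traf6 was above it only in the knockout, and another of Traf6 was below it on both. None of the 6 eligible probe sets was counted as 2-fold apart, against 2.3% of all eligible probe sets. The Traf6 one above the floor only in the knockout could not be counted, because the floor held its fold at 1.69. None of the 5 measured on both arrays was 1.5-fold apart, against 10.4% of all 5747 such probe sets. For so few probe sets these counts are near those shares, so they are not a result about the genes. Their log2 ratios of knockout over wild type ran from −0.13 for Myd88 to 0.26 for Tlr6, and the largest fold among them was 1.20. The median of the 6 eligible ratios was 0.21 beside 0.02 over all eligible probe sets. The sixth was eligible only through the array where it was high, and the median over the 5 measured on both arrays was 0.18 beside 0.01. With so few probe sets these medians describe the genes and nothing beyond them.

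**Figure D1:**
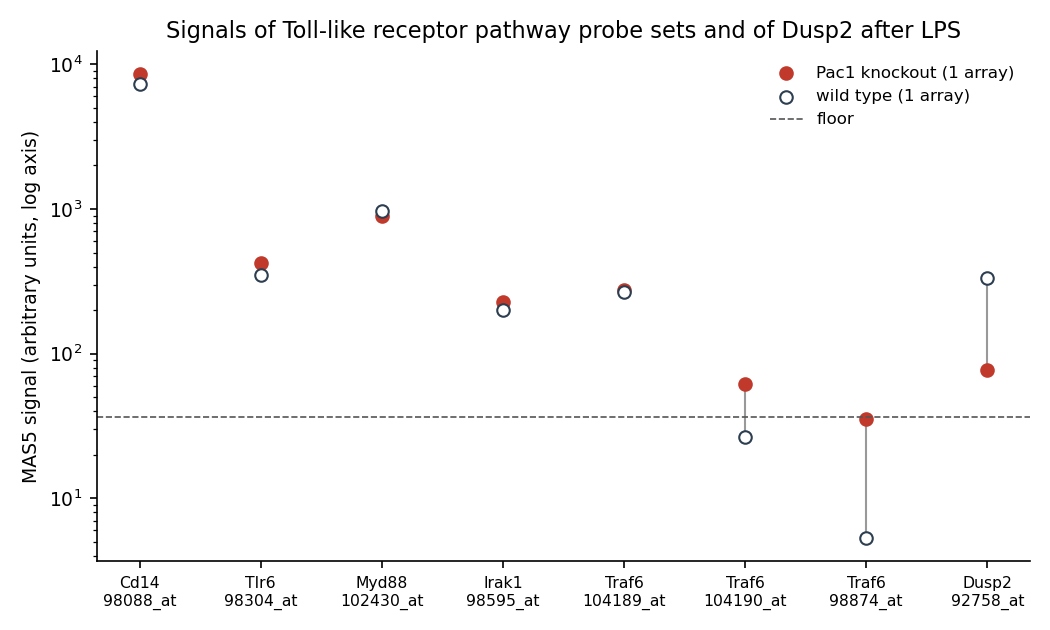
Each column is 1 probe set, with its gene above its identifier, and the vertical axis is the MAS5 signal in arbitrary units on a log scale. Filled points are the knockout array, open points the wild-type array, and the dashed line is the floor of 36.4. The pairs of Cd14, Tlr6, Myd88, Irak1 and the first Traf6 probe set nearly coincide, while Dusp2 is at 76.8 against 333 and the other two Traf6 probe sets lie near or below the floor.

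At the cell surface, Cd14, the gene of the co-receptor that binds LPS, was read by 1 probe set (98088_at). Its signal was 8581 in the knockout against 7270 in the wild type. It was the brightest of the 7 probe sets on both arrays, far from the floor, although signals of different probe sets do not rank transcripts. The knockout level was 1.18-fold the wild-type level (log2 ratio 0.24). Among the 669 eligible probe sets with a signal above 1000 on either array, the median distance from equality was 0.13 on the log2 scale and the 90th percentile 0.34, so the Cd14 difference was larger than that of the typical bright probe set and within the range of most of them. With equal medians the ratio was 0.12.

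Tlr6, the gene of the lipopeptide receptor that pairs with Toll-like receptor 2, was read by 1 probe set (98304_at). Its signal was 423 in the knockout against 352 in the wild type, 1.20-fold higher (log2 ratio 0.26). For the 1208 probe sets whose brighter signal lay between 300 and 1000, the median distance was 0.17 and the 90th percentile 0.49. Tlr6 had the highest ratio of the 5 probe sets measured on both arrays. Across the scalings tried the ratio ran from 0.15 to 0.30, above 0 in each.

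Myd88, the adaptor shared by most Toll-like receptors and the interleukin-1 receptor, was the only one of the 5 that was lower in the knockout. Its probe set (102430_at) gave 889 against 972, or 91.4% of the wild-type level (log2 ratio −0.13). This was less than the median distance of 0.17 in its range of brightness. The sign was kept under each scaling, from −0.25 to −0.11.

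Irak1, the kinase that MyD88 recruits through IRAK4, was at 229 in the knockout against 202 in the wild type (98595_at), a 1.14-fold difference (log2 ratio 0.18). In its range of brightness, 100 to 300, the median distance over 2037 probe sets was 0.23 and the 90th percentile 0.67. The Irak1 ratio was thus smaller than that of the typical probe set of its level, and it was 0.06 with equal medians.

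**Figure D2:**
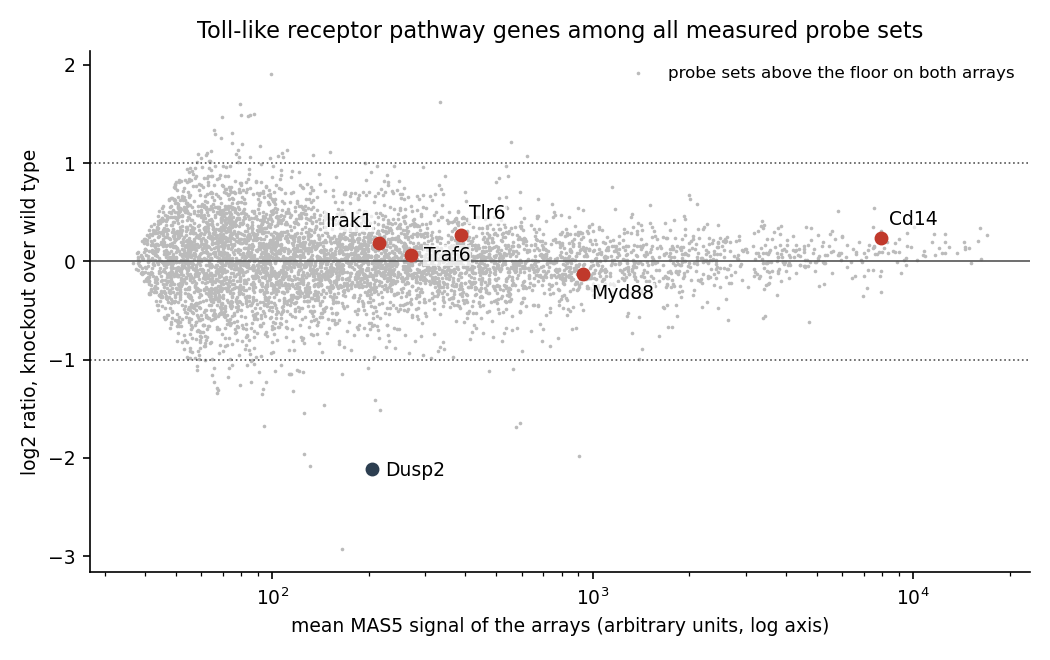
The horizontal axis is the mean MAS5 signal of the arrays in arbitrary units on a log scale, the vertical axis the log2 knockout to wild-type ratio. Grey points are the 5747 probe sets that exceeded the floor on both arrays, red points those of the receptor and proximal genes, the dark point is Dusp2, and dotted lines mark 2-fold. The red points lie inside the grey band, between −0.13 and 0.26, and Dusp2 lies below it at −2.12.

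Traf6, the ubiquitin ligase on which the MyD88 branch converges, had 3 probe sets, and they did not give 1 answer. The brightest (104189_at) was at 277 in the knockout against 265 in the wild type (log2 ratio 0.07, and −0.05 with equal medians). By this probe set the arrays were nearly equal, and the sign depended on the scaling. The second (104190_at) was at 61.6 in the knockout and 26.6, below the floor, in the wild type, at least 1.69-fold higher. The third (98874_at) was at 35.4 against 5.3, both below the floor, so it gives no fold. Only the bright probe set measured Traf6 on both arrays, and it placed the gene close to equality. With the floor lowered to the 25th percentile of the signals, both dim probe sets were 2-fold apart, as were 12.9% of all eligible probe sets under that floor.

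The disagreement was set beside that of other genes. For the 444 genes with exactly 2 probe sets measured on both arrays, the log2 ratios of the pair differed by a median of 0.30, and by 0.76 at the 90th percentile. The gap between the first and the second Traf6 probe set was at least 0.69. That pair is not of the same kind, because the second was under the floor in the wild type. Its gap is a lower bound and cannot be ranked among those of the 444 genes. A span of 0.39 covered the 5 probe sets of Cd14, Tlr6, Myd88, Irak1 and Traf6 measured on both arrays, which as a range over 5 is not comparable with a gap between 2.

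**Figure D3:**
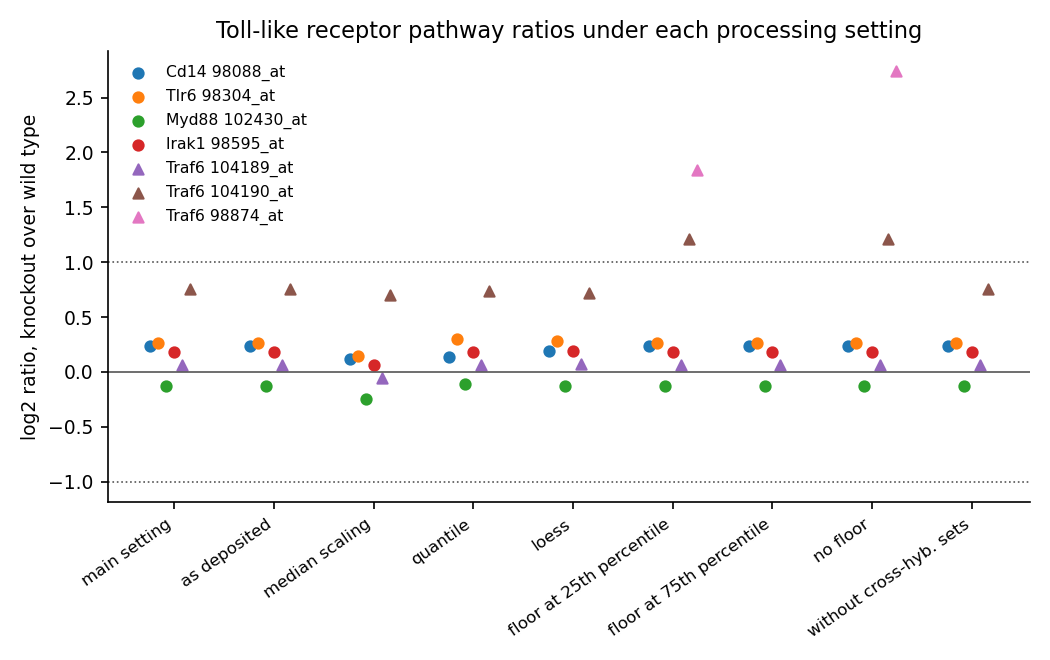
The vertical axis is the log2 knockout to wild-type ratio of each of the 7 probe sets, the horizontal axis the processing setting, and dotted lines mark 2-fold. Circles are Cd14, Tlr6, Myd88 and Irak1, triangles the 3 Traf6 probe sets, and a probe set is left out where both of its signals are under the floor. Only dim Traf6 probe sets pass 2-fold, with the lower floor (1.21 and 1.84, the latter a lower bound) or no floor (1.21 and 2.74).

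The wider pathway was described from a list of 48 further genes, of which 23 had a probe set. One probe set per gene was used, the one with the highest mean signal. Of these genes 20 were eligible and 19 above the floor on both arrays, 8 higher and 11 lower in the knockout, or 6 and 13 with equal medians. None was 2-fold higher and none 2-fold lower, against 2.31% of all 5119 eligible genes in either direction. One of the 19, Lbp, was 1.5-fold or more apart, against 9.95% of 4400 genes measured on both arrays. For so few genes these counts are near the shares over all genes and are not a result about the pathway. The median log2 ratio of the 20 was −0.02.

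Genes of LPS delivery and accessory proteins had the widest ratios. Lbp, the gene of the serum protein that carries LPS to CD14, was at 151 in the knockout against 79.5 (log2 ratio 0.92, a 1.89-fold difference). With the floor raised to the 75th percentile, above the wild-type signal, the ratio was bounded at 0.21 or more. Cd36, a scavenger receptor that also serves Toll-like receptors 2 and 6, was at 200.1 against 266 (−0.41). Hsp90b1, the chaperone that folds Toll-like receptors, was at 48.3 against 37.1 (0.38), both signals close to the floor, and its probe set carries a suffix for possible cross-hybridisation. Of 5 eligible genes of this kind 4 were higher, or 3 of 4 without probe sets of possible cross-hybridisation. Of all probe sets measured on both arrays 51.1% were higher, and so few genes cannot be set against that share. Unc93b1, which escorts receptors to endosomes, was below the floor on both arrays. The remaining Toll-like receptor with a probe set, Tlr7 (54.4 against 52.4), and the remaining adaptor, Tirap (52.3 against 53.9), were dim and nearly equal, with the sign for Tlr7 turned by equal medians and by loess.

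Of the genes listed for kinase and ubiquitin steps, their subunits and adaptors included, 11 had a probe set and 9 were eligible. Of the 8 above the floor on both arrays, 3 were higher and 5 lower, or 2 and 6 with equal medians. The catalytic subunit gene Ikbkb of the I-kB kinase was at 88.4 against 65.9 (log2 ratio 0.42). Its regulatory subunit gene Ikbkg was at 133 against 102 (0.39), but its other probe set, with a cross-hybridisation suffix, was at 105 against 113 (−0.11). The other 6 lay between −0.25 and 0.01, among them Tbk1, a kinase of the interferon branch (686 against 746), and Ube2n, the ubiquitin-conjugating enzyme that works with TRAF6 (754 against 851). Tab2, the adaptor between TRAF6 and the kinase TAK1, was at 52.8 against a wild-type signal of 17.6 below the floor, at least 1.45-fold higher. The TAK1 gene itself, Map3k7, was below the floor on both arrays.

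Of the 4 measured negative regulators, 3 were lower in the knockout under each scaling tried, and the median of the 4 log2 ratios was −0.24. Of all probe sets measured on both arrays 51.1% were higher, and a count over 4 genes is too small to set against that share. The scalings rework the same arrays and are not independent support. Tollip, which holds IRAK1 inactive, was at 189 against 238 (log2 ratio −0.33), and its other probe set was also lower (59.4 against 66.3). Tnfaip3, which encodes the deubiquitinase A20 that reverses TRAF6 signalling, was at 458 against 543 (−0.24), and Tank was at 602 against 711 (−0.24). Socs1, a feedback inhibitor of cytokine signalling, was nearly equal at 420.1 against 420.5, with a ratio just above 0 under quantile normalization and loess and −0.12 with equal medians. None of these reached 1.5-fold. All genes of the wider list were named with their values in view, Lbp, Ikbkb, Cd36, Ikbkg and Hsp90b1 by a rule that takes the 5 largest ratios and the others freely.

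**Figure D4:**
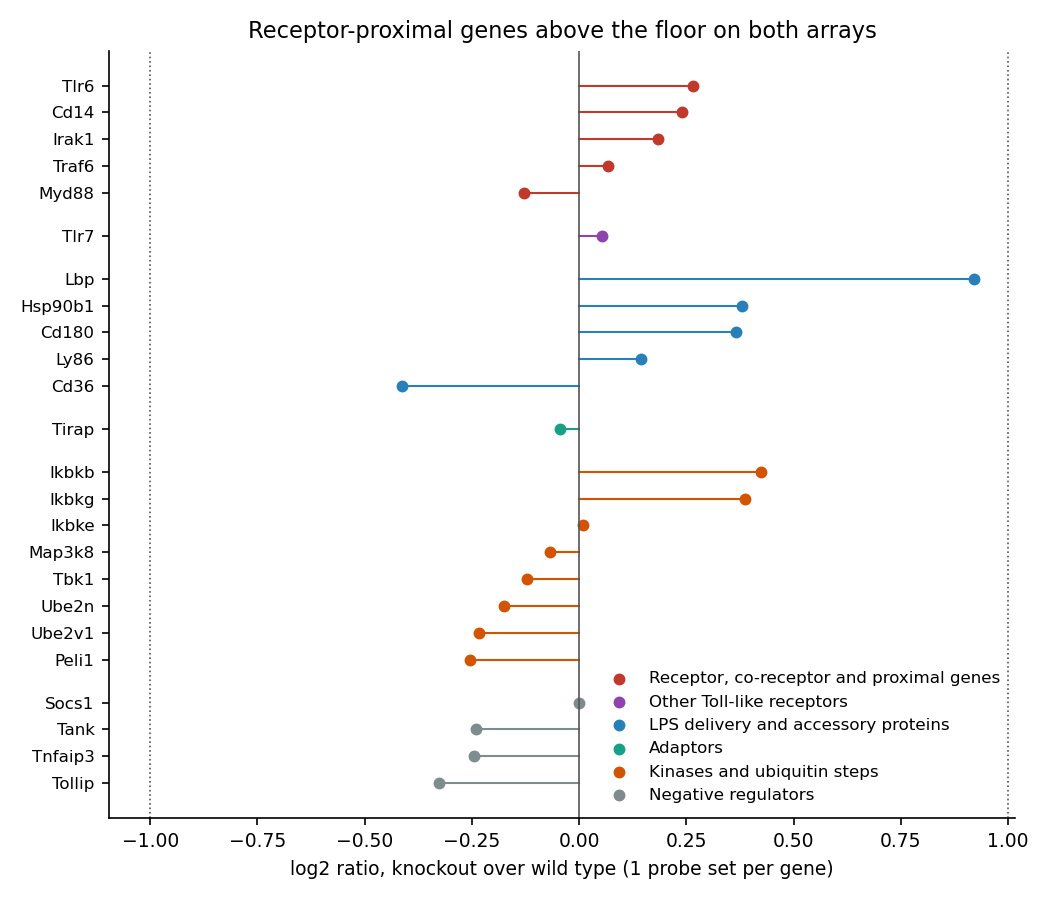
Each line is 1 gene above the floor on both arrays, with its log2 ratio of knockout over wild type from its brightest probe set, grouped and coloured by role. Dotted lines mark 2-fold. Lbp stands apart at 0.92, and the remaining genes lie between −0.41 and 0.42.

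The cells carried the macrophage identity of the labels. All 9 macrophage markers on the list were above the floor on both arrays, among them Itgam, which encodes Mac-1 (356 against 301), Csf1r (1090 against 852), Cd68 (4582 against 3821) and Lyz2 (5769 against 5165). The scavenger and lectin receptor genes Msr1 (1366 against 2171), Mrc1 (295 against 361) and Marco (42.5 against 47) were lower in the knockout. Of these 9 markers 6 were higher in the knockout (5 with equal medians), with a median log2 ratio of 0.16 (0.04 with equal medians), and their summed signal was 17634 against 16007. The log2 ratios of Cd14 (0.24) and Tlr6 (0.26) lay within those of the 9 markers, which ran from −0.67 for Msr1 to 0.36 for Fcgr1. The part of macrophage RNA content in the Cd14 and Tlr6 values was not tested. In bulk RNA, fewer cells of a type and less RNA per cell cannot be told apart.

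Neutrophils also carry CD14 and Toll-like receptors. Of 8 neutrophil markers, 5 were below the floor on both arrays, Ly6g included (12.6 against 5). The summed signal of the list was 498 against 570, most of it from Csf3r (315 against 408). Camp went the other way (85.7 against 61.9), and Elane was at 50 against 54. Of the other lists, 3 of 4 measured B cell markers, none of 6 T and NK cell markers, 3 of 5 dendritic cell markers, 1 of 6 mast cell and eosinophil markers and 5 of 7 stromal and mesothelial markers were above the floor on both arrays. Their summed signals in knockout and wild type were 358 against 430 for B cells, 91.9 against 121 for T and NK cells, and 1088 against 1118 for dendritic cells, where Itgax made up most of the signal. Among B cell markers Cd79a went the other way, at 100.2 against 20.7, the latter below the floor. Cd4 (32.8 against 74.5) was the only T and NK cell marker above the floor on either array. The sums were 361 against 159 for mast cells and eosinophils and 1258 against 1521 for stromal and mesothelial cells. Of the 5 stromal and mesothelial markers above the floor on both arrays, 2 were higher, Dcn (318 against 247) and Col1a2 (246 against 232). Pdgfra (236 against 432) and Col1a1 (374 against 514) were among the lower ones. Most of the mast cell and eosinophil sums came from Tpsb2 (192 against 116) and Prg2 (100.1 against 16, the latter below the floor). The part of these cells in the Toll-like receptor values was not tested.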

How the data were processed

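The authors deposited 1 intensity per probe set and array, computed with MAS5, which joins perfect-match and mismatch probes into a linear signal, per the submitters' processing notes. These notes name no version or settings. RNA (500 to 1000 ng) was copied from a poly(T) primer and amplified, per the labels' protocols, which weights transcript 3′ ends. Detection calls were not used. Of 12654 probe sets, 10298 had 1 gene symbol in the platform annotation, 363 several and 1993 none. Those with several symbols or none were not assigned to a gene. Symbols were checked against a gene table of GRCm38.p6. The 66 control probe sets were left out after scaling.

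Arrays were scaled to equal 2% trimmed means, signals raised to the floor (36.4, their median), and log2 ratios taken with Python 3.11.15, numpy 2.4.6 and pandas 2.3.3. A fold with 1 signal under the floor is a bound. Alternatives changed the scaling, the floor and the probe sets. The script was tested on simulated data. No test across arrays was possible, and the number of arrays limits the precision. Of the wider pathway, 5 genes were named by a rule that takes every gene 2-fold apart and the 5 largest ratios measured on both arrays. The other genes named from it were chosen freely, with their values in view. Genes, lists and alternatives were chosen with earlier results of these data known.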

Additional observations from a re-analysis of the deposited data

How the results depend on the processing

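The lower floors changed the counts. With the floor lowered to the 25th percentile, 2 probe sets of the receptor and proximal genes were 2-fold apart, both of Traf6. Their log2 ratios were 1.21 and at least 1.84, the latter a bound because its wild-type signal was still under the floor. So were 1326 of all 10310 eligible probe sets, or 12.9%. With no floor, again 2 of 7 were 2-fold apart, at 1.21 and 2.74. So were 2780 of all 12547 eligible probe sets, or 22.2%. Of the wider pathway's 23 eligible genes, 1 (Tab2) was 2-fold apart with the lower floor. With no floor 3 were (Map3k7, Tab2 and Tab3), all dim. For so few probe sets and genes these counts are not a result about them. These settings admit signals that the main floor holds equal. With the floor raised to the 75th percentile, 13 of 3333 eligible probe sets, or 0.39%, were 2-fold apart and none of these genes. Lbp was then at 0.21 or more and Ikbkg at 0.03 or more, both bounds because their wild-type signals were under that floor. Of the wider pathway's 11 genes above that floor on both arrays, 2 were higher and 9 lower in the knockout (1 and 1 for LPS delivery and accessory proteins). The share of all genes higher under that floor was not computed, and 11 genes are too few for a result about the pathway. Under the other 5 alternatives the count for the receptor and proximal genes and for the wider pathway stayed at 0. The median log2 ratio of the receptor and proximal genes ran from 0.09 to 0.24 over the 8 alternatives, and that of the wider pathway from −0.14 to −0.02. Of the 5 genes' brightest probe sets, Traf6 alone changed sign, with equal medians. A change was counted as small when it was under 0.30, the median gap between probe sets of a gene, since no replicate spread exists. No paired analysis was possible because each genotype had 1 array, and leaving out a replicate could not be run.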
